A study of Mus musculus with 72 samples.

Results

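The mRNAs described here encode the subunits of RNA polymerase II, of the Mediator complex and of TFIID and its relatives. They were chosen as the protein-coding genes whose symbol begins with Polr2, or with Med or Taf followed by a digit, and whose exons covered on average at least 400 T positions per whole-cell library (T positions are the places in aligned reads where a conversion could be read). The rule gave 66 genes, 13 Polr2, 30 Med and 23 Taf genes, of 12826 protein-coding genes that passed the same minimum and 30099 genes with T counts. It used no labeling value. No matching protein-coding gene fell under the minimum: the shallowest member, Taf9b, had a mean of 1443 T positions, and the 2 matching genes left out, Med9os and Polr2k-ps, are not protein coding and had 21.2 and 1.44. Of the Taf genes 16 encode TFIID subunits. The symbols also take in Taf1a, Taf1b, Taf1c and Taf1d, which encode the SL1 factor of RNA polymerase I, Taf5l and Taf6l, which encode SAGA subunits, and Taf15, which encodes a FET family RNA-binding protein.

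All samples were E14TG2a cells, an established mouse embryonic stem cell line, grown in 2i and LIF medium and given 4-thiouridine (4sU) for 15, 20, 30, 40, 60 or 120 min. 4sU is built into new RNA, and after alkylation it is read as a T-to-C conversion (SLAM-seq). Each culture gave a whole-cell sample, set aside first, and a cytosolic, a membrane and a nuclear fraction, taken in that order by digitonin, by a stronger detergent and as the remaining pellet, with cycloheximide in the buffers. Poly(A) RNA was sequenced, so that transcripts without a tail were largely left out. The labels give 500 µM 4sU for 15 to 40 min and 100 µM for 60 and 120 min, while the methods of the study give the higher dose for part of the 60-min cultures. Replicates 1 and 2 cover 15, 20 and 30 min, replicates 3 and 4 cover 20, 40 and 60 min, and replicates 5 and 6 cover 60 and 120 min. Across the pairs dose, time and replicate pair thus cannot be told apart, and no test here compares doses. Within replicates 3 and 4 the times share the pair, but by the labels the dose differs at 60 min. All results rest on 64 libraries, 16 per fraction, with 15382522 to 52975732 counts on genes. A further 8 libraries, of replicates 3 and 4 at 120 min, are set aside and appear in the closing section only. Unlabeled libraries were not analysed here.

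The share of new RNA is the number of converted T positions over all T positions of a gene, divided by the deposited conversion rate of the library. That rate ran from 2.07% to 8.29%. The share can exceed 1, because the rate is an estimate. No background was subtracted, so that the smallest shares hold sequencing errors too. The 66 genes together had 1484528 to 8812211 T positions and 799 to 87482 conversions per library. Embryonic stem cell markers, 8 genes, summed to 3814 to 8444 CPM (counts scaled to 1000000 per library) in every library. The 5 fibroblast or feeder markers summed to 1.67 to 20.3 CPM and the 6 germ layer markers to 3.99 to 23.3 CPM. Malat1 and Neat1, nuclear RNAs, summed to a median of 1134 CPM in the nucleus and 269 CPM in the cytosol. The 4 mRNAs of membrane-bound synthesis summed to medians of 6397 CPM in the membrane, 2262 in the nucleus and 388 in the cytosol. The 3 mRNAs of cytosolic proteins summed to medians of 5006 CPM in the cytosol, 3476 in the nucleus and 2793 in the membrane. The whole-cell library of replicate 6 at 60 min stood apart. It had a median share over all genes of 0.374, against 0.112 and 0.118 in replicates 3 and 4 and 0.220 in replicate 5, and the library labelled 120 min of the same replicate had 0.175 where replicate 5 had 0.388, so that the labels of these libraries may have been exchanged, which was not tested. The former enters the fits of shares at 60 min, which are also given without it.

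RNA polymerase II transcribes all protein-coding genes. Its core holds the large catalytic subunits Polr2a and Polr2b, the assembly subunits Polr2c and Polr2j, the stalk of Polr2d and Polr2g, Polr2i, and 5 small subunits, Polr2e, Polr2f, Polr2h, Polr2k and Polr2l, that polymerases I and III use as well. Polr2m encodes Gdown1, which joins the polymerase and bars general factor TFIIF. TFIID, built from Tbp and the Taf proteins, recognizes core promoters, and Mediator passes signals from enhancer-bound activators to the polymerase. Mediator has head, middle and tail modules on the scaffold Med14, and a kinase module of Cdk8 or Cdk19, cyclin C, Med12 or Med12l and Med13 or Med13l that joins and leaves it.

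The families differ in the length of their mRNAs. Annotated exons spanned a median of 1.65 kb per Polr2 gene (0.624 to 7.07 kb), 3.92 kb per Med gene and 4.04 kb per Taf gene. The 3′ UTR was taken from the coding transcript ranked best by the annotation's APPRIS level, and from the longest among equals. It had a median of 264, 732.5 and 835 bases, against 1029 bases over 10567 genes measured. For Taf1a it had 0 bases. The sense strand of these 3′ UTRs was searched for the AU-rich letters TATTTAT and for TGTANATA, the letters bound by Pumilio proteins. The AU-rich letters stood in 2 of 13 Polr2, 9 of 30 Med and 6 of 23 Taf genes and in 28.6% of all genes, and the Pumilio letters in 4, 9 and 8 genes and in 25.4% of all genes. A match describes the letters only. Sites are shown from genes with high or low nuclear shares of new RNA, Med18 and Polr2f at the ends of the order at 60 min, Med12 next to Polr2f and Med7 next to Med26 and Med18 at 20 min with 0.267, and from Polr2a, whose share was higher in the nucleus at 20 min and in the cytosol at 60 min. The matched letters are in capitals within 10 flanking bases on each side, 5′ to 3′ on the coding strand, with GRCm38 positions of the capitals: Polr2a at chr11:69734306-69734313 (minus strand), Polr2f at chr15:79151741-79151748 (plus), Med18 at chr4:132458838-132458844 (minus), Med12 at chrX:101297406-101297412 (plus) and Med7 at chr11:46441779-46441786 (plus).
Polr2a: ctgggtccctTGTACATAactccttgtg
Polr2f: gttttatatgTGTAAATAataaacctca
Med18: tttattccttTATTTATttgttgtttt
Med12: ttttgtatatTATTTATatagagatcc
Med7: ctatgagaaaTGTACATActtcaccttc
Genes with high and low shares both held matches: the AU-rich letters stood in Med18, the highest nuclear share of the 66 at 60 min, and in Med12, the lowest of the Mediator genes, and the 3′ UTR of Med26, the next highest after Med18, held neither motif in its 926 bases.

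In whole-cell RNA the polymerase subunits had the highest median level of the 3 families per exon length. The median Polr2 gene had 41.5 CPM per kb (11.2 to 73.5), the median Med gene 9.91 (0.388 to 33.0) and the median Taf gene 10.1 (0.561 to 46.4). Polr2e led with 73.5 ± 21.2 CPM per kb (SD, n = 16), followed by Polr2m with 72.9 ± 16.7 and Polr2a with 71.8 ± 28.9, and these 3 do not differ beyond their spread. Taf7, a TFIID subunit encoded by a gene without introns in its coding part, had the highest Taf level at 46.4, and Taf15 followed at 43.9. The lowest levels were those of Med12l at 0.388, Taf9 at 0.561, Taf9b at 0.591 and the germ cell paralog Taf7l at 2.19 CPM per kb. The level of Taf9 is uncertain, because 73.8% of its exon bases are also exon bases of Ak6 on the same strand.

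More members were at a lower than at a higher level in the nucleus compared with the cytosol, mostly through polymerase and Mediator genes. Levels were compared as CPM between 16 nuclear and 16 cytosolic libraries by the edgeR quasi-likelihood test, with calls requiring an adjusted p under 0.05 together with a log2 fold change over 0.5 in size. Of 66 members, 13 were higher in the nucleus and 25 lower, while 42.5% of all 16093 genes tested were higher and 21.2% lower. The median log2 fold change was -0.31 over members and 0.29 over all genes. After rescaling that sets the all-gene median to 0, an alternative chosen after seeing the data, 9 members were higher and 34 lower, against 34.7% and 31.3% of all genes. CPM compare the makeup of fractions, so that fewer molecules of an mRNA per cell and a different amount of other RNA in the fraction cannot be told apart.

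Among polymerase subunits, 9 of 13 were lower in the nucleus, against 21.2% of all genes tested. The 9 included all 5 that polymerases I and III share, and the family's median log2 fold change was -0.72. Polr2m fell from 254 to 468 CPM in the cytosol (median 304) to 97.1 to 155 CPM in the nucleus (median 114), a log2 fold change of -1.48 (SE 0.0958, edgeR adjusted p = 5.34e-22). Its groups did not overlap. The stalk gene Polr2d followed at -1.29, the assembly gene Polr2j at -1.20, and of the shared subunits Polr2l at -1.05, Polr2f at -0.85, Polr2h at -0.74, Polr2k at -0.72 and Polr2e at -0.69. The other stalk gene, Polr2g, was at -0.72. Polr2i, Polr2b and Polr2c were not called, at -0.43, -0.33 and -0.32. Polr2a, which encodes the catalytic subunit with the C-terminal repeat domain, was the exception: it had 503 CPM at the lowest, 812 at the median and 1153 at the highest in the nucleus, against 47.0, 250 and 324 in the cytosol. The lowest nuclear library was above the highest cytosolic one, and the log2 fold change was 2.05 (SE 0.225, edgeR adjusted p = 1.55e-12). Within replicates 1 and 2, 3 and 4, and 5 and 6 it was 1.01, 3.83 and 1.12.

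The kinase module was the part of Mediator with the most genes called higher in the nucleus than in the cytosol: all 4 of its genes passed, or 3, without Med13l, after centring. Of all genes tested 42.5% were called higher, or 34.7% after centring. Med13 had 77.9 to 187 CPM in the nucleus and 33.4 to 71.3 in the cytosol, with no overlap, at a log2 fold change of 1.21 (SE 0.140, edgeR adjusted p = 8.79e-12). Med12 had a log2 fold change of 1.56 (SE 0.196, adjusted p = 1.14e-10), with 21.0 to 99.4 CPM in the nucleus and 9.55 to 28.1 in the cytosol. Its groups overlapped, and the value was 1.03, 2.55 and 0.28 within the 3 replicate pairs. Med12l followed at 0.99 and Med13l at 0.71, and within replicates 1 and 2 alone the value of Med13l was -0.20. Of the Med12 exon bases 9.72% are shared with another gene on its strand. Of the kinase partners Cdk19 was also called, at 0.99, while the cyclin gene Ccnc had 0.22 and was not. The level of Cdk8, the alternative kinase, is not given here.

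In the other Mediator modules few genes were at a higher level in the nucleus. The tail gene Med23 at 1.1 and Med1, of the middle module and the contact of nuclear receptors, at 0.58 were the other 2 Med genes called higher. Of the head module 2 of 7 genes were lower, of the middle module 5 of 9 and of the tail 3 of 9, against 21.2% of all genes tested. Med29 had the lowest value at -1.64, with 5.89 to 14.3 CPM in the nucleus and 18.7 to 51.8 in the cytosol, followed by Med19 at -1.47 and Med9 at -1.26. The scaffold gene Med14 was not called at 0.28 and was at -0.0057 after centring.

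TFIID genes were divided, 3 higher and 6 lower of 16, while 3 of 4 genes of the polymerase I factor SL1 were higher. Over all genes tested 42.5% were higher and 21.2% lower. Taf13 had the lowest value at -1.58, with 13 to 20.0 CPM in the nucleus and 36.3 to 73.9 in the cytosol, and its partner in TFIID, Taf11, was at -0.92. Taf12 was at -1.37 and Taf10 at -1.34, both subunits of TFIID and SAGA. Taf7 and Taf7l were at -0.84 and -0.52. The SL1 gene Taf1d had 189 to 601 CPM in the nucleus and 110 to 183 in the cytosol, at a log2 fold change of 1.19, and Taf1c and Taf1a were at 1.03 and 0.57. Of the Taf1d exon bases 10.1% are shared with genes on its strand. Taf4, a scaffold of TFIID, was at 0.97, Taf8 at 0.61 and Taf9, with the doubt named above, at 1.46 from 0.244 to 3.57 CPM. Taf1, the largest TFIID subunit, Taf15 and Taf4b were not called, at 0.22, 0.28 and -0.18.

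**Figure D1:**
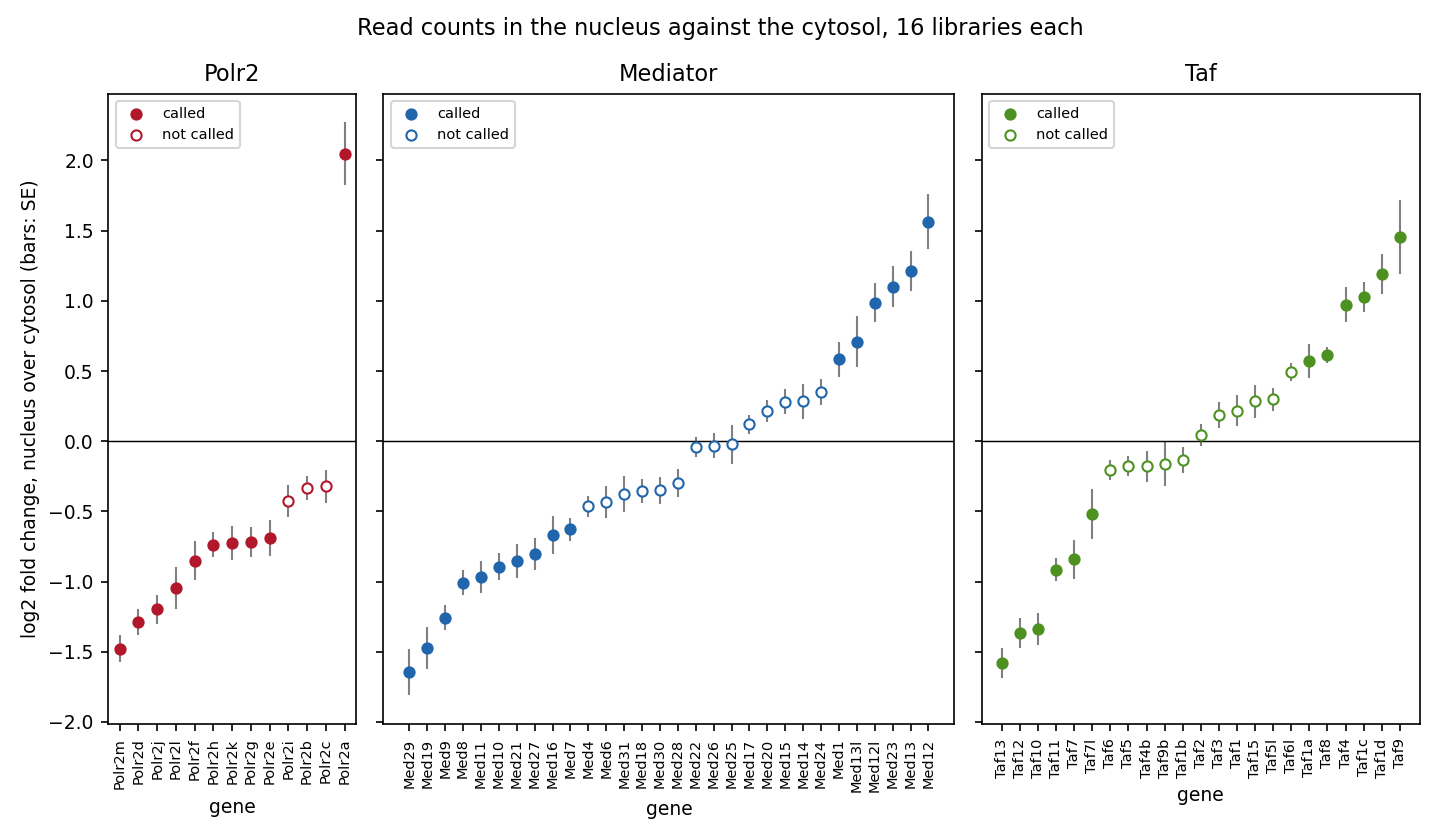
Log2 fold change of the level in the nucleus over the cytosol for each of the 66 genes, in 3 panels by family (points with bars of 1 SE from edgeR, 16 libraries per fraction; filled points passed the call). Polr2a stands at 2.05 above all other polymerase genes, 9 of which were lower, and the 4 kinase module genes lie among the highest Mediator genes.

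Genes with long exons tended to have the higher nuclear levels. Over the 66 genes Spearman's rho between exon length and this log2 fold change was 0.618, with 0.571 over Polr2, 0.775 over Med and 0.0652 over Taf genes, and 0.362 over 11184 genes. These correlations run across genes measured in the same libraries and are descriptions. The part of transcript length in the family difference was not tested.

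Polymerase mRNAs had the lowest share of new RNA of the 3 families in every fraction. In the nucleus at 60 min the family median was 0.157 ± 0.0355 for Polr2, 0.252 ± 0.0447 for Med and 0.261 ± 0.0622 for Taf genes (SD, n = 4 libraries), with 0.237 over all genes measured. The Polr2 median lay below the Med and the Taf median in 16 of 16 nuclear, 16 of 16 membrane and 16 of 16 whole-cell libraries. In the cytosol it lay below the Med median in 13 of 16 and below the Taf median in 15 of 16, and the exceptions were libraries of 15 and 20 min. The Polr2 minus Med difference per library was -0.0951 ± 0.0226 in the nucleus and -0.0577 ± 0.0166 in the cytosol at 60 min (SD, n = 4), and the Polr2 minus Taf difference -0.104 ± 0.0331 and -0.0934 ± 0.0308. At 20 min the differences to Med were -0.0107 ± 0.00751 in the nucleus and -0.00319 ± 0.005 in the cytosol, the latter within its spread. No test was made of these medians, since genes are not replicates of a family.

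Mean nuclear and cytosolic medians were larger at longer labeling in all families, though single cultures of neighbouring times overlapped. Nuclear means for Polr2, Med and Taf genes went from 0.0216, 0.0309 and 0.0359 at 15 min to 0.0771, 0.0878 and 0.0969 at 20 min and to 0.258, 0.428 and 0.487 at 120 min. Cytosolic means were 0.0194, 0.0226 and 0.0277 at 20 min, 0.0878, 0.146 and 0.181 at 60 min and 0.214, 0.388 and 0.411 at 120 min. At 60 min the cytosol of replicates 3 and 4 gave Polr2 medians of 0.0630 and 0.0531 and that of replicates 5 and 6 of 0.130 and 0.106, while the nucleus gave 0.203, 0.131, 0.165 and 0.128. The replicate pairs thus separated in the cytosol and overlapped in the nucleus. Their conversion rates in the cytosol at 60 min were 5.83% and 7.57% in replicates 3 and 4 and 2.38% and 2.58% in replicates 5 and 6. The means at 60 min join both pairs.

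**Figure D2:**
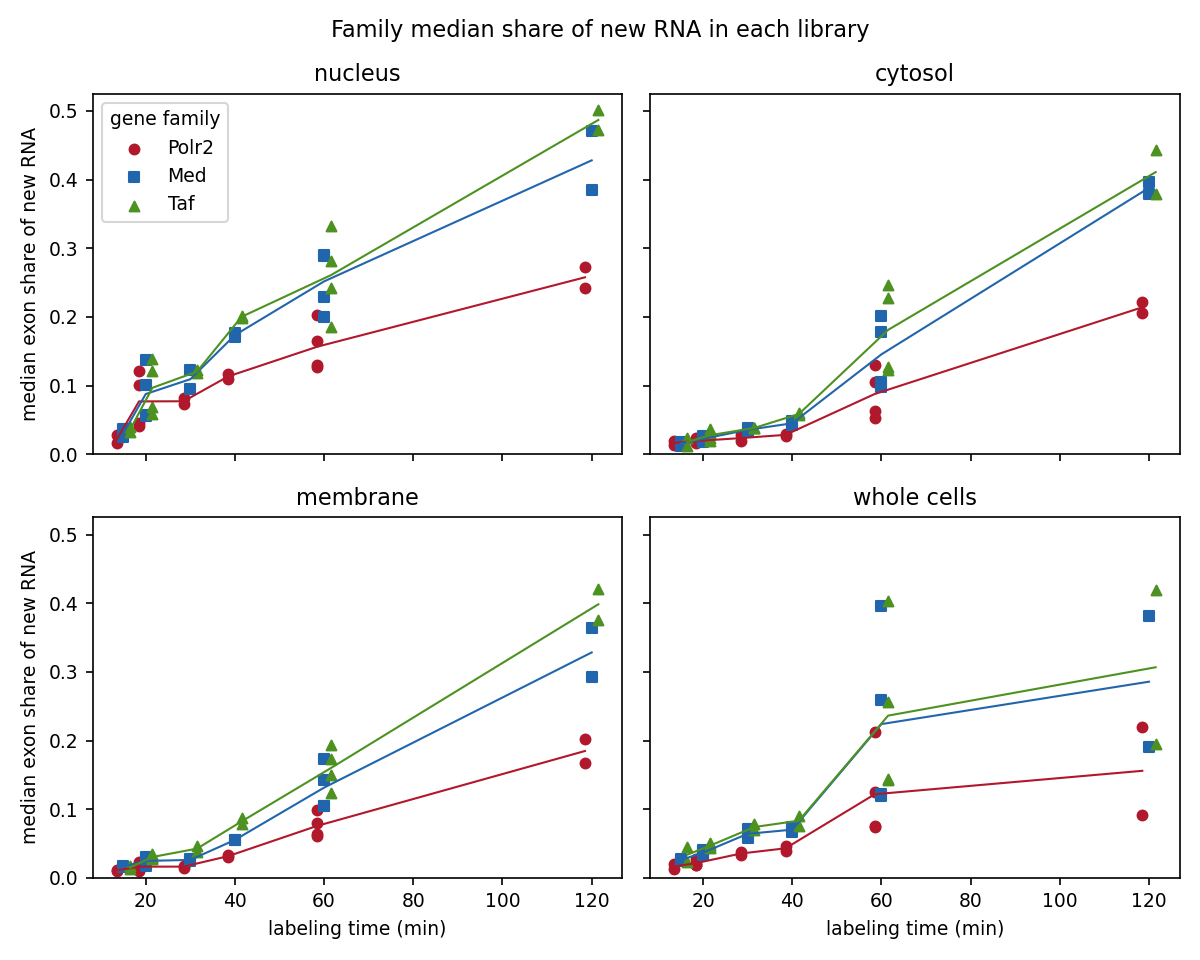
Median share of new RNA per library for Polr2, Med and Taf genes against labeling time in minutes, with 1 panel for each fraction (points are libraries, set slightly apart sideways by family, and lines join the means). The polymerase line runs lowest in each panel except at 15 min in the cytosol, where its mean was 0.0166 and that of Med genes 0.0155, and at 120 min the nuclear means were 0.258 for Polr2, 0.428 for Med and 0.487 for Taf genes.

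Single genes spanned a far wider range than the family medians. Med18, a head subunit, had the highest nuclear share at 60 min, with 0.812, 0.705, 0.953 and 0.821 in replicates 3 to 6, and Med26, which links Mediator to elongation factors, followed with 0.706, 0.7, 0.755 and 0.710. Both lay far above the other members, at percentiles 99.5 and 98.8 of all genes measured, and Taf1d and Med1 came next with means of 0.560 and 0.503. At the other end, Polr2f had 0.0825, 0.0677, 0.0623 and 0.0698 and Med12 0.0817, 0.119, 0.0641 and 0.0444, at percentiles 3.1 and 4.19. The groups of values of Med18 and Med26 do not overlap with those of Polr2f and Med12. Among polymerase subunits the nuclear share at 60 min ran from 0.0706 for Polr2f to 0.226 for Polr2d, among Mediator genes from 0.0774 for Med12 to 0.823 for Med18. The ranking in the cytosol was alike, with Spearman's rho of 0.819 between nuclear and cytosolic shares at 60 min over the 66 genes and 0.793 over 11575 genes, from libraries of the same cultures.

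**Figure D3:**
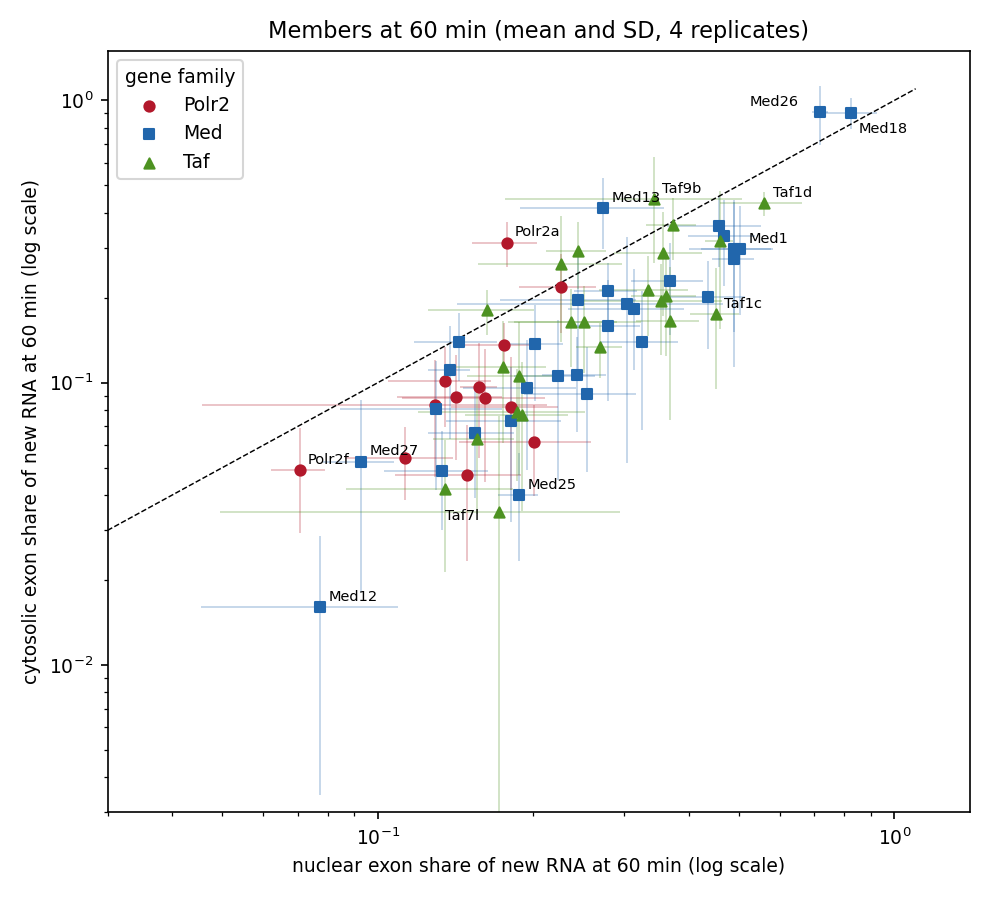
Share of new RNA at 60 min in the nucleus against the cytosol for the 66 genes, both axes on a log scale (points are means of replicates 3 to 6, bars 1 SD, colors the families, the dashed line equal shares). Med18 and Med26 lie at the top right, Med12 and Polr2f at the lower left, and Polr2a lies on the cytosolic side with 0.178 in the nucleus and 0.313 in the cytosol.

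At 20 min new mRNA of nearly all members was ahead in the nucleus. Shares of the nucleus and cytosol were compared over 4 libraries each with limma, fitted on all genes with at least 400 T positions in every library of that time. Of the 66 genes 57 were higher in the nucleus at an adjusted p under 0.05, 12 of 13 Polr2, 27 of 30 Med and 18 of 23 Taf genes, and none was lower. Of 12130 genes tested 58.9% were higher and 0.198% lower. The difference was positive for all 66 members, with a median of 0.0604 over them and 0.0467 over all genes. Med26 had the largest difference at 0.232 (SE 0.0421, limma adjusted p = 0.00115), from 0.317, 0.344, 0.452 and 0.364 in the nucleus and 0.129, 0.155, 0.0798 and 0.185 in the cytosol of replicates 1 to 4. Taf9b followed with 0.209, Taf9 and the middle subunit Med7 with 0.196 each, Med18 with 0.165 and Taf5 with 0.133. Of the polymerase genes Polr2d led with 0.0972, Polr2l had 0.0958 and Polr2m 0.0803. Polr2f, at 0.0116 (SE 0.00577, limma adjusted p = 0.0912), was the polymerase gene not called, with 0.0147, 0.0330, 0.0345 and 0.0311 in the nucleus and 0.0159, 0.0169, 0.0165 and 0.0177 in the cytosol. The smallest values were 0.00782 for Taf1a, 0.00953 for Med24 and 0.00969 for Med12, none of them called. The count rests on replicates 3 and 4: it was 35 without replicate 3, 22 without replicate 4 and 16 within replicates 1 and 2 alone. Over all genes the number higher was also smaller in these settings, 4066 of 12455, 2832 of 12212 and 1779 of 12835.

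At 60 min fewer members were called. Of 66 members 7 were higher in the nucleus and none lower, against 14.7% and 0.94% of 12230 genes tested. At an unadjusted p under 0.05 25 members were higher and none lower, and 58 differences were positive. The median difference was 0.0901 over members and 0.0724 over all genes. The 7 were the SL1 gene Taf1c, Med21 and Med25 of Mediator, the polymerase genes Polr2i and Polr2e, Taf7l and Taf10. Taf1c had 0.461, 0.497, 0.465 and 0.382 in the nucleus and 0.0875, 0.127, 0.247 and 0.239 in the cytosol, without overlap, a difference of 0.276 (SE 0.0788, limma adjusted p = 0.0229). Polr2i, the zinc-binding subunit, had 0.280, 0.201, 0.177 and 0.146 against 0.0419, 0.0454, 0.0700 and 0.0883, a difference of 0.140 (SE 0.0377, adjusted p = 0.018). Polr2e had a difference of 0.102, Med21 of 0.186, Med25 of 0.148, Taf7l of 0.137 and Taf10 of 0.0928. Med23, the Mediator gene with the largest difference at 0.235, was not called (limma adjusted p = 0.0645).

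The call at 60 min depended on how the cultures entered the fit. With the culture as a block, which pairs the fractions of one dish, 22 members were higher and none lower (25.0% and 2.45% of all genes). Without the whole-cell library of replicate 6, a setting chosen after seeing the data, 29 were higher and none lower (35.2% and 2.67%). Within replicates 3 and 4 alone 45 members were higher and 1 lower, beside 6531 and 136 of 12483 genes. Within replicates 5 and 6 alone no member was called, beside 8 higher and 21 lower of 13173 genes. No member was called without replicate 3, 4 or 5, where 34, 133 and 262 of all genes were higher. Without replicate 6, 21 members were called, beside 3603 of 12246 genes higher and 122 lower.

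Polr2a was among 4 members whose nuclear share was the higher in every culture at 20 min and the lower in every culture at 60 min. At 20 min the share was 0.0449, 0.0725, 0.122 and 0.107 in the nucleus of replicates 1 to 4 and 0.0207, 0.0253, 0.0318 and 0.0350 in the cytosol, a difference of 0.0584 (SE 0.016, limma adjusted p = 0.00736). At 60 min it was 0.203, 0.156, 0.196 and 0.155 in the nucleus and 0.389, 0.272, 0.325 and 0.268 in the cytosol of replicates 3 to 6, where every cytosolic value lay above every nuclear value. The difference of -0.136 was not called (SE 0.0771, limma adjusted p = 0.199). At 120 min the nucleus gave 0.376 and 0.338 and the cytosol 0.450 and 0.396. The nuclear share was the higher one in 10 of 16 cultures, and the other 6 were those of 60 and 120 min. Polr2a had both the highest nuclear level per kb of the polymerase genes, 117 CPM per kb, and their highest cytosolic share at 60 min, 0.313, where the family ran down to 0.0470 for Polr2e. Med13, Med18 and Med26 were the other 3, with differences of 0.0565, 0.165 and 0.232 at 20 min and of -0.142, -0.0835 and -0.19 at 60 min, the latter not called. The difference between the times was not tested. The number of all genes with this pattern is not given here, so how common it is beyond the members is not known. For Med26 the cytosol gave 0.760, 0.762, 1.22 and 0.893 at 60 min.

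How far the cytosolic share lay behind the nuclear share differed more between replicate pairs than between families. The cytosolic share was 27.9% of the nuclear share at 20 min and 61.0% at 60 min for the median member, with 25.7% and 63.1% for Polr2, 27.9% and 58.6% for Med and 28.8% and 64.05% for Taf genes. These means join unlike cultures: over the 66 genes the median at 20 min was 46.4% and 39.0% in replicates 1 and 2 and 18.7% and 25.5% in replicates 3 and 4, and at 60 min it was 37.3% and 43.8% in replicates 3 and 4 and 79.9% and 78.7% in replicates 5 and 6. Within replicates 3 and 4, which cover both times, the value was higher at 60 min in each, while replicates 1 and 2 at 20 min overlapped with replicates 3 and 4 at 60 min. The nuclear share was above the cytosolic share of the same culture in all 16 cultures for 21 of 66 genes, 6 Polr2, 8 Med and 7 Taf genes. The count over all genes is not given here.

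Introns, which mark RNA before splicing, gave Polr2 genes the highest mean of the 3 families up to 60 min, where nuclear exons gave them the lowest. The genes also differ in length, with medians of 6.32 kb for Polr2, 15.1 kb for Med and 16.4 kb for Taf genes. The part of gene length in this order was not tested. The median nuclear intron share at 20 min was 0.552 for Polr2, 0.370 for Med and 0.372 for Taf genes, and at 60 min 1.02, 0.922 and 0.868. The Polr2 median was below the Med median in 2 of 16 libraries and below the Taf median in 2 of 16, where for exons it was below in all 16. By 120 min the medians were 0.913, 0.954 and 0.947. Introns had enough T positions in 63 of the 66 genes at all times, without Med22, Taf7 and Taf9b. Of the T positions of a gene in nuclear libraries, introns held a median of 23.2% in Polr2, 32.3% in Med and 25.4% in Taf genes, with the highest value in Med27 at 73.6%.

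Within the nucleus the intron share exceeded the exon share for nearly all members. At 20 min 60 of the 64 members tested were higher in introns and none lower (limma, adjusted p under 0.05), against 85.6% and 0.133% of 11282 genes. At 60 min 63 of 63 were higher and none lower, against 95.9% and 0.177% of 10726 genes. The median difference at 20 min was 0.481 for Polr2, 0.294 for Med and 0.277 for Taf genes, with 0.235 over all genes. Polr2m had the largest, 0.675 (SE 0.0728, limma adjusted p = 2.78e-06), with intron shares of 0.733, 0.703, 0.893 and 0.839 and exon shares of 0.0808, 0.0960, 0.158 and 0.132 in replicates 1 to 4. Polr2d followed with 0.672, and the largest Med and Taf values were 0.578 for Med31 and 0.529 for Taf13. Polr2f, with 0.211, was the lowest of the polymerase genes and still called. Med12 was low in introns as well as in exons: its intron share was 0.0657, 0.0687, 0.159 and 0.215 at 20 min and 0.426, 0.600, 0.289 and 0.363 at 60 min, when that of Polr2a was 1.06, 1.15, 1.1 and 1.11. At 60 min the differences ran from 0.261 for Med18, whose exon share was 0.823, to 0.961 for Polr2l. Intron and exon shares of the nucleus at 60 min had a Spearman's rho of 0.0647 over the 63 genes and 0.132 over 10380 genes, a description across genes of the same libraries.

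**Figure D4:**
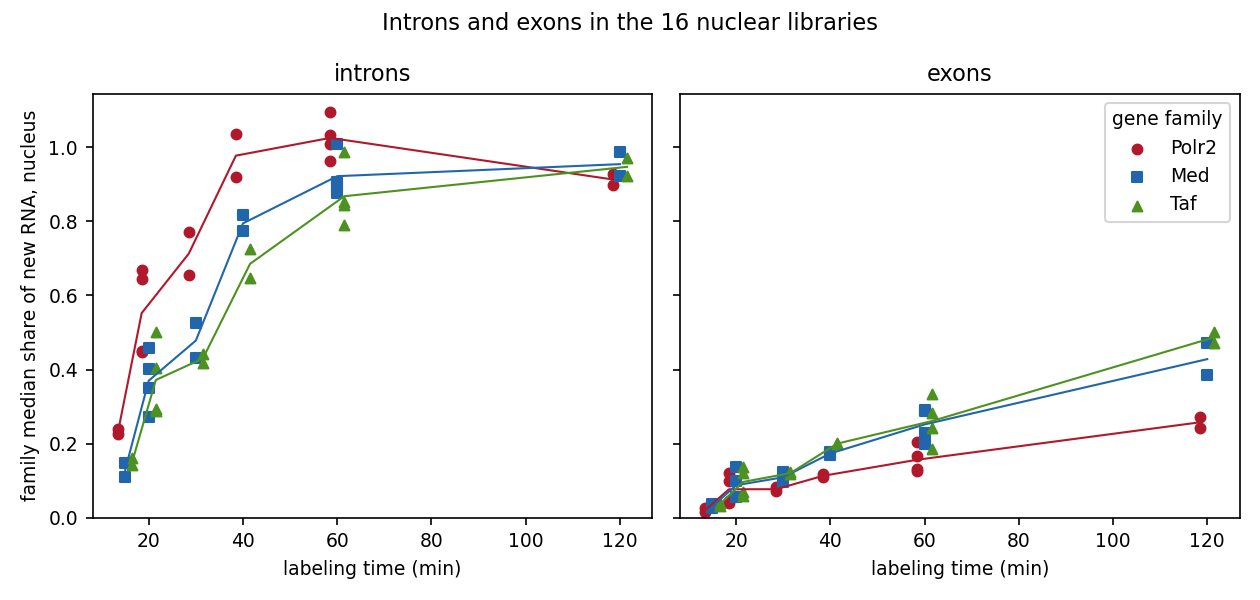
Family medians of the share of new RNA in nuclear introns and nuclear exons against labeling time in minutes (points are libraries, set slightly apart sideways by family, and lines join the means). For introns Polr2 genes start highest, 0.552 at 20 min, and for exons they run lowest, 0.157 at 60 min.

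New sequence was spread unevenly along long genes. In the 15 members with exons both under 5 kb and over 30 kb from the 3′ end, the nuclear share was higher near the 3′ end in all 15 at 20 min, in 14 at 40 min and in 14 at 60 min. At 60 min Med1 had 0.542 near and 0.117 far, Med23 0.534 and 0.109, Taf15 0.445 and 0.0496, and Med27, a tail subunit encoded over 178 kb, 0.185 and 0.00949. The exception at 40 and 60 min was Med13, with 0.245 near and 0.334 far at 60 min. Polr2b, the polymerase gene long enough, had 0.166 ± 0.0410 and 0.124 ± 0.0513 (SD, n = 4 libraries). These ranges overlap, though its far value was the lower in 16 of 16 nuclear libraries of all times. Taf3, whose PHD finger reads methylated histone H3, had 0.281 and 0.215. Several far values are imprecise. In the 60-min library with the fewest, far exons held 0 conversions for Med27, Taf15 and Med15, 1 for Med23 and 2 for Med1. The far mean of Taf15, 0.0496, had an SD of 0.0556. No test was run on these values.

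**Figure D5:**
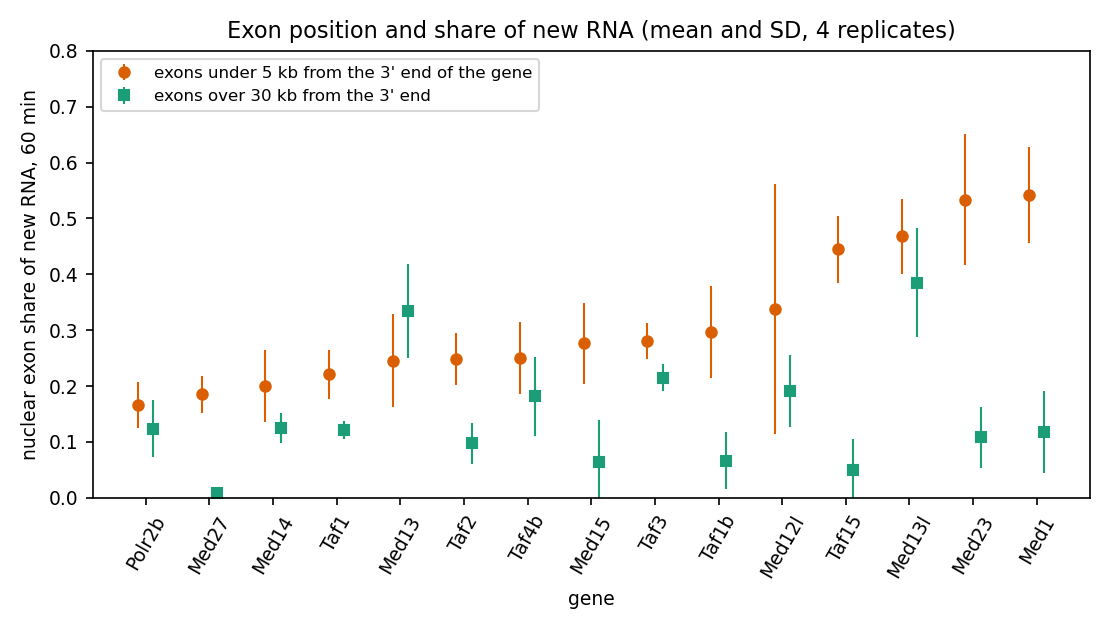
Nuclear share of new RNA at 60 min in exons under 5 kb and over 30 kb from the 3′ end for 15 members (points are means of replicates 3 to 6, bars 1 SD). The near value is the higher in 14 genes, and Med13 has 0.245 near and 0.334 far.

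Paralogs of one subunit differed in their shares. Med12 had a nuclear share of 0.0774 at 60 min and Med12l of 0.304, lower in all 4 libraries, and Med13 had 0.273 against 0.467 for Med13l, also lower in all 4. In the cytosol the order of the latter pair was turned, with 0.415 for Med13 and 0.332 for Med13l and Med13 higher in 4 of 4 libraries. Taf4, the broadly used TFIID scaffold, had 0.333 and its paralog Taf4b, known from germ cells, 0.227 in the nucleus, higher in 4 of 4. In the cytosol Taf4 had 0.213 and Taf4b 0.264 at 60 min, with Taf4 higher in 1 of 4. Over all times Taf4 was higher in 2 of 16 cytosolic and 2 of 16 membrane libraries. The TFIID gene Taf6 lay below its SAGA counterpart Taf6l in 16 of 16 nuclear libraries, with 0.156 and 0.270 at 60 min. Taf5 and Taf5l had 0.361 and 0.372 in the nucleus, where Taf5 was higher in 1 of 4 libraries, but 0.203 and 0.361 in the cytosol, where it was higher in none. In the cytosol at 60 min Taf7 had 0.181 and Taf7l 0.0348, and Taf9 had 0.194 and Taf9b 0.448. In the nucleus these pairs lay close, with 0.163 for Taf7 and 0.172 for Taf7l, and 0.353 for Taf9 and 0.342 for Taf9b. These orders are counts over libraries, with no test.

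The membrane fraction differed from the cytosol for few members. Of 66 members 3 were at a higher level in the membrane and 11 lower (edgeR), against 24.1% and 12.9% of 16093 genes. The all-gene median was -0.16. After centring, chosen after seeing the data, 6 were higher and 5 lower, against 26.2% and 4.06%. The 2 SAGA genes led: Taf5l had 150 to 216 CPM in the membrane and 64.6 to 119 in the cytosol, without overlap, at a log2 fold change of 1.02 (SE 0.0804, adjusted p = 2.62e-18), and Taf6l had 51.9 to 80.5 against 34.4 to 45.9 CPM, at 0.81. The third was Med23 at 0.55. The lowest was Polr2a at -0.97, followed by Taf13 at -0.77, Taf7l at -0.75 and Taf1 at -0.72. Polr2a was at -1.22 and -1.21 within replicates 1 and 2 and 5 and 6 but at 0.07 within replicates 3 and 4. The other polymerase gene called lower was Polr2m at -0.59. The count of lower members was 18 without replicate 2 and 22 without replicate 5.

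Shares of new RNA in the membrane did not separate from the cytosol for any member. At 60 min limma called none of the 66 higher or lower, against 0.0% higher and 1.77% lower of 12230 genes, and 0 members had an unadjusted p under 0.05. Family medians were 0.0758 for Polr2, 0.131 for Med and 0.160 for Taf genes. The differences ran from -0.165 (SE 0.124) for Med26 to 0.0983 (SE 0.103) for Med1, with a median of -0.0103 over members and -0.00774 over all genes.

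The partners of these complexes gave values in the same range, from lists taken up with earlier results known. Of 18 genes of the other general factors and Tbp, 1 was higher in the nucleus than in the cytosol, Ercc2 at a log2 fold change of 1.59, and 8 were lower, with Gtf2e2 at -1.26. At 20 min 16 of the 18 had a higher nuclear share, and at 60 min 5. Their median nuclear share at 60 min was 0.172. Over all genes tested 42.5% were higher and 21.2% lower in level, and 58.9% and 14.7% had a higher nuclear share at 20 and 60 min. Of 18 pausing and elongation genes 5 were at a higher and 5 at a lower nuclear level, from Tcea1 at -1.33 to Ccnt2 at 1.33, and 15 and 4 had a higher nuclear share at 20 and 60 min, with a median share of 0.189 at 60 min and the highest in Ccnt1 at 0.503. Of 18 tested subunits specific to polymerases I and III, 2 were higher and 5 lower in level, from Polr3k at -1.17 to Polr3a at 1.48, and their median share was 0.247. Of the 3 kinase module partners Cdk19 had a nuclear share of 0.593 at 60 min, Cdk8 of 0.234 and Ccnc of 0.23.

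Levels in whole cells gave no call during labeling. Between 20 and 60 min in replicates 3 and 4, and between 60 and 120 min in replicates 5 and 6, the edgeR test on 16 whole-cell libraries called 0 of 16701 genes (0.0% in each direction in both comparisons) and 0 members. At an unadjusted p under 0.05 there were 780 and 113 genes, none of them a member, and DESeq2 called 0 in both with 645 and 92. The values of members ran from -0.47 for Med13 to 0.45 for Polr2f between 20 and 60 min, and from -0.62 for Polr2l to 0.45 for Taf1 between 60 and 120 min. The comparison of 60 with 120 min rests on the libraries labelled replicate 6, whose shares run against their labelled times: the Polr2 median was 0.213 in the library labelled 60 min and 0.0916 in that labelled 120 min, against 0.125 and 0.220 in replicate 5. Whether these labels were exchanged was not tested. Without replicate 6 the comparison also called 0 genes, with 897 at an unadjusted p under 0.05. With 2 libraries per group a small movement was not detectable.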

How the data were processed

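Per the labels, E14TG2a cells were labeled with 4sU and fractionated, and stranded poly(A) libraries were sequenced. The authors aligned reads to mm10 with STAR 2.7.6 and deposited raw read counts per gene from HTSeq 0.11.1 (RSEM 1.3.3 is also named in the submitters' notes), and counts of T positions and T-to-C conversions per exon, intron and gene from their own program, without known variants. They also deposited a conversion rate per library, a fraction from a binomial mixture, and the ratio of new to total RNA, which is conversions over T positions divided by that fraction. The ratio was recomputed here from the deposited counts. HTSeq's counters of reads on no gene took 30.7% to 48.8% of a library's reads and were left out. The members, lists and tests were chosen with earlier results of these data known. Genes were matched by identifier to GENCODE M21 on GRCm38, 51633 of 51826 (99.6%).

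Levels were tested in R 4.3.3 with edgeR 4.0.16 (filterByExpr, TMM, quasi-likelihood, fraction as the group over 64 libraries, Benjamini-Hochberg over all genes; call at adjusted p under 0.05 and a log2 fold change over 0.5), with DESeq2 1.42.0 as an alternative. Shares were tested with limma 3.58.1 (eBayes with trend, 4 fractions, 16 libraries of 1 time) over genes with T of 400 or more in every library. Both were tested on simulated data. Python 3.11.15 with pandas 2.3.3 and matplotlib 3.10.9 did the rest. Fractions of one replicate and time come from one culture, which pairs them: the correlation of nuclear and cytosolic deviations from the group means was 0.0855 to 0.26 for log2 CPM at 20 min and 0.0903 to 0.364 for shares at 60 min. The 120-min libraries of replicates 3 and 4 were set aside, as the study did. Replicates were passaged separately. Reads carried no molecular identifiers, so counts are not independent molecules, and shares with few conversions are imprecise.

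Named are every Polr2 gene, the kinase module, the Taf paralog pairs, the SL1 genes, Taf15, Med14, Taf1, the 3 highest and 3 lowest members of each family in each comparison, and the extremes of the pathway lists. Other genes named beside them were chosen after their values were seen. The alternatives tried were other scaling, filters, pseudocounts, T minimums of 100 and 1000, the culture as a block, single replicate pairs and each replicate left out, and 4 alternatives added after seeing the data.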

Additional observations from a re-analysis of the deposited data

Results flagged for a closer look

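In groups of 4 libraries, 2 of 118 tested for a library far from the others were singled out, where chance singles out about 1 in 20. Polr2f had 0.0147 in the nucleus of replicate 1 at 20 min, under 0.0311 to 0.0345 in the other 3. Med21 had 0.408 in the nucleus of replicate 3 at 60 min, above 0.292 to 0.303 in the other 3.

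The nucleus minus cytosol difference in the exon share was positive in every culture at 20 min and negative in every culture at 60 min for 4 members. The mean went from 0.0584 to -0.136 for Polr2a, a change of -0.194, with values at 60 min of -0.185, -0.115, -0.129 and -0.114. It changed by -0.198 for Med13, by -0.248 for Med18 and by -0.422 for Med26. The difference between the times was not tested, and time, dose and replicate pair differ together. How many of all genes show this pattern is not given here.

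The 120-min libraries of replicates 3 and 4, in no comparison here, held nuclear family medians of 0.245 for Polr2, 0.420 for Med and 0.410 for Taf genes, beside 0.258, 0.428 and 0.487 in replicates 5 and 6. Their cytosolic medians were 0.148, 0.235 and 0.265, beside 0.214, 0.388 and 0.411. In both pairs of replicates the Polr2 median was the lowest of the 3. Conversion rates at 120 min were 8.83% to 12.2% in replicates 3 and 4 and 3.26% to 3.96% in replicates 5 and 6. Whether the pairs had unlike doses was not tested.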

How the results depend on the processing

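Of 1235 values of named genes under alternatives, 1213 kept their direction and 22 did not; of 246 values of counts and family differences 197 stayed within their limits and 49 moved. Causes were not tested. For levels in the nucleus against the cytosol, 7 members were higher within replicates 1 and 2 and 5 within replicates 5 and 6, and 9 to 14 with a replicate left out. For the membrane, 6 were higher after centring, 6 within replicates 1 and 2 and 6 within replicates 3 and 4, and 5 were lower after centring, 10 to 22 with a replicate left out. Without a filter on low counts the whole-cell comparisons called 53 genes (120 against 60 min) and 49 (60 against 20 min). At 20 min, 16 members and 1849 genes had called shares within replicates 1 and 2, and 22 to 59 members and 2843 to 7506 genes with a replicate left out. At 60 min, nucleus against cytosol, 13 members were called on log2 shares, 11 at a minimum of 1000 T, 29 without the whole-cell library of replicate 6, 22 with the culture as a block, 45 higher and 1 lower within replicates 3 and 4, and 0 within replicates 5 and 6. With a replicate left out it was 0 to 21. Over all genes the calls were 1218 at a minimum of 100 T, 4630 without that library, 3355 with the block, 6667 and 29 within the pairs, and 46 to 3725 with a replicate left out. Membrane against cytosol at 60 min gave 445 genes on log2 shares, 126 at 100 T, 555 without that library, 441 with the block, 3 within replicates 3 and 4 and 4 to 130 with a replicate left out, and 0 members in each. With the block 28 genes in place of 15 were lower in nuclear introns than exons at 20 min, with 0 members in both, and no other count of calls moved by over 1.5 times. From pooled counts the Polr2 minus Med difference was -0.026 in the nucleus at 20 min, -0.149 at 60 min and -0.0775 in the cytosol at 60 min, and the Polr2 minus Taf difference in the nucleus at 60 min -0.144.

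The direction turned for nucleus against cytosol levels in Med13l (-0.20, replicates 1 and 2), Med14 (-0.0057 centred, -0.014 in replicates 1 and 2, -0.25 in replicates 5 and 6, -0.0033 to 0.33 with a replicate left out), Taf4b (0.022, replicates 3 and 4), Taf1 (-0.080 with all 72 libraries, -0.071 centred, -0.35 in replicates 5 and 6, -0.099 to 0.26 with a replicate left out) and Taf15 (-0.10, -0.0062, -0.015 and -0.032 to 0.34 in the same settings). The negative value came without replicate 4 in each. It also turned for the membrane level of Polr2a (0.074, replicates 3 and 4). For shares at 20 min it turned in Med24 (-0.00094), Taf1a (-0.012) and Taf6l (-0.0094) within replicates 1 and 2, and in Taf1a (-0.00017 to 0.0162) and Taf6l (-0.00101 to 0.0289) with a replicate left out, negative without replicate 4. At 60 min it turned in Taf9b (0.0222 within replicates 3 and 4, -0.211 to 0.0108 with a replicate left out, positive without replicate 6). Low conversion counts at 15 and 20 min limit the cytosolic shares most.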
